A study of Danio rerio with 15 samples.

Results

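Among 12 whole-body zebrafish libraries from control larvae and larvae given 0.1, 1 or 5 µM perfluorooctanesulfonic acid (PFOS), the 4 libraries numbered 1 (1 from each group) were compared with the 8 libraries numbered 2 or 3. The libraries were assigned by the number in their label and in the column name of the deposited gene table. The comparison itself was chosen with earlier results of these data known, so the separation of the classes is not independent of that choice. The series holds 15 libraries in all. The 3 libraries from 10 µM PFOS were left out because their columns carry the numbers 2, 3 and 4 while their labels run from 1 to 3. All larvae were of the AB wild-type strain and were taken at 120 hours after fertilization, and the groups differ only in the PFOS dose as far as the labels say. The series title places the study in the developmental neurotoxicity of PFOS, a persistent fluorinated surfactant. The labels do not say what the number stands for, whether a spawning, an exposure run, a day or a preparation, nor how many larvae were pooled, so the p-values below measure only the spread between these libraries.

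As background, zebrafish larvae of one spawning share parents and a developmental clock, and the AB strain is kept as an outbred stock, so larvae of separate spawnings can differ in allele, stage and state. At this age the larva has begun to use its gut, pancreas and liver, its defence rests mainly on macrophages, neutrophils and epithelial surfaces, and its hormonal stress axis and light-entrained clock are at work. Whole-body RNA mixes all of these tissues. In such samples, fewer cells of a type and less RNA per cell cannot be told apart.

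The 12 libraries held from 12203158 to 19978125 estimated reads on genes, and the libraries numbered 1 held from 13447347 to 19978125. The share of reads on the mitochondrial genome was between 4.01% and 4.63% in the libraries numbered 1 and between 3.85% and 5.38% in the others, with the highest share in the third 5 µM library. None of 7 measures of the libraries, such as depth, genes detected and the slope of expression on gene length, separated the number classes (exact permutation within dose groups, two-sided, p from 0.148 to 0.988, where 0.0123 is the smallest p the 81 arrangements allow). In each of 27 cell type lists, from 8 to 87 members averaged at least 1 CPM (counts per 1000000 reads), so every list had expressed members. This does not show that each cell type was present, because some genes, such as agr2, stand in more than 1 list.

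The libraries numbered 1 stood apart from the others in every dose group. On the first principal component of log2 CPM, which held 22.8% of the variance, the 4 libraries numbered 1 lay between -29.0 and -25.2, and the 8 others between 7.85 and 34.4. The third 5 µM library lay farthest out at 34.4. The deviations of the libraries from their dose-group means correlated across genes between 0.304 and 0.438 in the 6 pairs of libraries numbered 1, and between -0.301 and -0.0587 when a library numbered 1 was set against a library of another group numbered 2 or 3. These correlations are across genes, which are not independent replicates, and deviations within a group of 3 sum to 0. No gene passed the F test for dose over the same 12 libraries (0% called by edgeR, with 390 genes at an unadjusted p below 0.05). That fit left the number out, so the difference between numbers added to its spread. With number in the fit as 3 levels, 1 gene passed and 710 had an unadjusted p below 0.05.

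**Figure D1:**
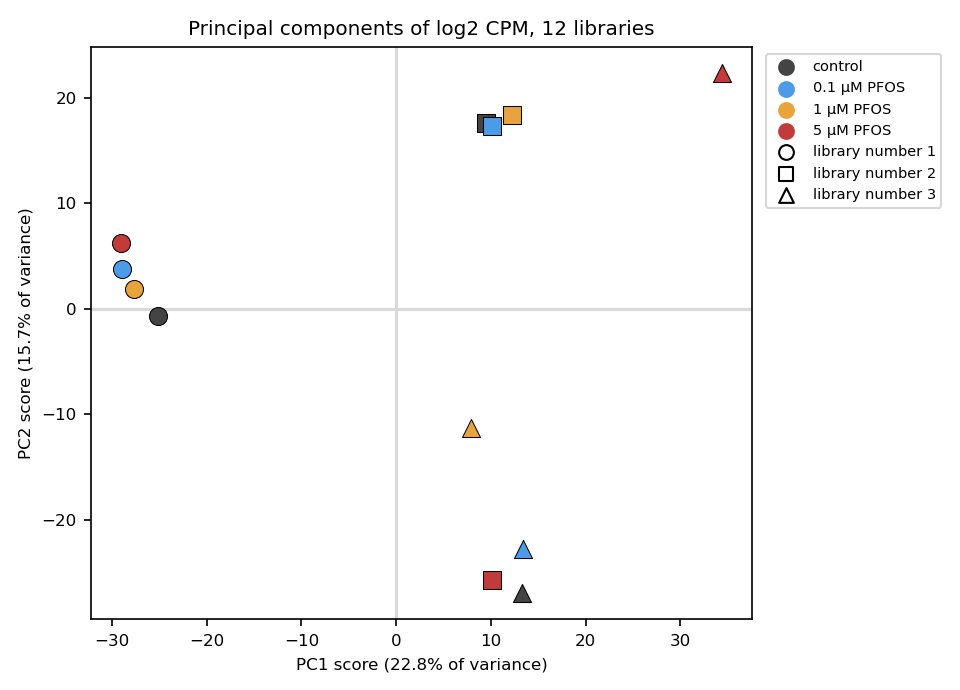
Scores of the 12 libraries on the first component (horizontal, 22.8% of variance) and the second component (vertical, 15.7%) of log2 CPM over all genes tested; colour marks the PFOS group and shape the library number. The circles, numbered 1, form a cluster at the left, while the squares and triangles lie at the right and are spread along the second component.

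Of 21560 genes tested, 721 (3.34%) differed between the libraries numbered 1 and the others, with the dose group as a block (edgeR's quasi-likelihood test, Benjamini-Hochberg adjusted p below 0.05). Of these, 525 (2.44%) were higher and 196 (0.909%) were lower in the libraries numbered 1. The typical difference was modest, with a median absolute log2 difference of 0.57 among the genes called, and 136 genes were higher and 32 lower by at least 2-fold. In 678 of the 721 genes, the library numbered 1 lay beyond both other libraries in each of the 4 dose groups, 495 of them higher and 183 lower, whereas 5.89% of all genes tested had the first order and 4.62% the second. In 370 of the genes called higher, all 4 libraries numbered 1 lay above all 8 others, whereas 2.75% of all genes tested had that order. In 142 of the genes called lower, all 4 lay below the 8 others, against 1.82% of all genes tested. The genes were called on these same libraries, so such orders among them follow in part from the call.

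No dependence of the difference on the PFOS dose was detectable. No gene passed the test of an interaction between number class and dose (0% called by edgeR, with 465 genes at an unadjusted p below 0.05). Of the 721 genes, 718 had a log2 difference of 1 sign in all 4 groups. They were called on the difference over these same groups, which favours 1 sign, so this count does not bear on dose. With 1 library per number and dose, small differences between doses were not detectable. That test takes its residual spread from the libraries numbered 2 and 3 within each group. Differences between those numbers, given below, add to it and make a dependence on dose harder to detect. The count of genes itself depended on single libraries. It was 224 without the first 0.1 µM library, 312 without the first 1 µM library, 333 without the first 5 µM library, 422 without the first control library and 474 without the third 0.1 µM library.

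**Figure D2:**
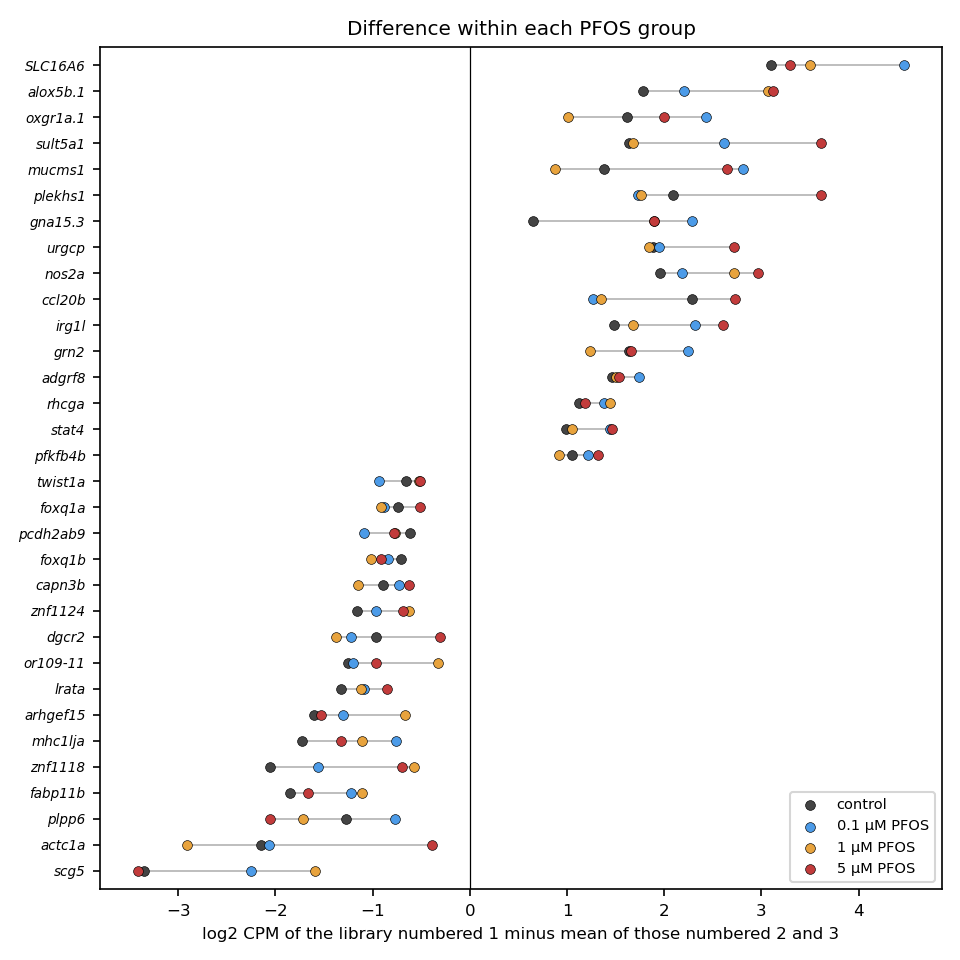
For each gene named for its size or its p-value (vertical), the log2 CPM of the library numbered 1 minus the mean of the libraries numbered 2 and 3 (horizontal), with 1 point for each PFOS group and a line from the lowest to the highest. All points of a gene lie on 1 side of 0, which the rule required of the genes named for their size.

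Among genes with an established symbol, those of smallest p were higher in the libraries numbered 1. The gene pfkfb4b encodes an enzyme that sets the level of a glycolytic regulator. It was at 116, 141, 98.2 and 146 CPM in the libraries numbered 1 of the control, 0.1, 1 and 5 µM groups, and between 49.8 and 68.5 CPM (median 56.0) in the 8 others. The classes did not overlap, and the log2 difference was 1.13 ± 0.08 (SE, adjusted p = 2.14e-05). The ammonia channel gene rhcga, a marker of acid-secreting ionocytes, was at 92.9, 137, 122 and 135 CPM against 37.5 to 70.5 CPM (median 47.1). Every library numbered 1 again exceeded every other library, by a log2 difference of 1.28 ± 0.10 (SE, adjusted p = 2.14e-05). Of 38 ionocyte and ion transport genes tested, rhcga was the only 1 called, a share of 2.63% beside 3.34% of all genes. The median log2 difference of that list was 0.03. The transcription factor gene stat4, which acts downstream of interleukin receptors, was at 38.9, 51.0, 38.9 and 34.2 CPM against 11.2 to 21.1 CPM (median 17.5). Both classes of stat4 were lowest at 5 µM, and the gap between them was 1.24 ± 0.10 on the log2 scale (SE, adjusted p = 2.21e-05). The adhesion receptor gene adgrf8 was higher by 1.56 ± 0.12 on the log2 scale (SE, adjusted p = 2.21e-05).

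Of 23 genes tested in a list of the corticosteroid axis and its targets, 6 were higher and none was lower. These made up 26.1% of the list, beside 3.34% called over all genes. All gene lists used here were chosen with earlier results of these data known. Their shares beside that of all genes are therefore not independent of the data. The list's median log2 difference was 0.30, beside -0.01 over all genes tested. The gene fkbp5 encodes a co-chaperone of the glucocorticoid receptor and is among the most used markers of cortisol action. It was at 226, 302, 358 and 401 CPM in the libraries numbered 1 of the control, 0.1, 1 and 5 µM groups, and between 74.3 and 162 CPM (median 107) in the others. The lowest library numbered 1 was the control, and it still lay above all 8 others, with a log2 difference over the 4 groups of 1.51 ± 0.16 (SE, adjusted p = 0.000192). The gene hsd11b2, whose enzyme inactivates cortisol, was higher by 0.59 ± 0.12 (SE, adjusted p = 0.0123). The gluconeogenic gene pck1 was higher by 0.68 ± 0.15 (SE, adjusted p = 0.0266), although its highest library among the others, at 784 CPM, exceeded the first control library at 730 CPM. The clock gene per1a, which glucocorticoids also induce, and sgk1, a kinase gene of the same response, completed the list together with klf9. The transcription factor gene klf9 was at 166, 133, 171 and 179 CPM against 33.8 to 137 CPM (median 83.3), and its log2 difference of 1.02 ± 0.25 (SE, adjusted p = 0.0415) lost its call in 13 of 25 alternative settings.

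Of 40 clock genes tested, 9 were higher and none was lower (22.5% called, 3.34% over all genes), with a median log2 difference of 0.18. They included the light- and clock-driven repressors per1a, per1b, per2, cry1a and cry2 and the nuclear receptor genes nr1d1 and nr1d2a, whose proteins repress the activators of the clock. The per1a level was 118, 110, 131 and 109 CPM in the libraries numbered 1 and 71.6 to 87.3 CPM (median 79.8) in the others, a log2 difference of 0.56 ± 0.07 (SE, adjusted p = 0.000712). The cry1a level was 64.3, 67.6, 64.4 and 72.9 CPM against 33 to 50.1 CPM (median 39.7). The classes of per1a, per1b, cry1a and nr1d2a did not overlap, and the largest difference of the 4 was that of nr1d2a, at 0.90 ± 0.15 (SE, adjusted p = 0.00367). The time of day at which each library's larvae were taken is not given in the labels, and its part in the result was not tested.

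**Figure D3:**
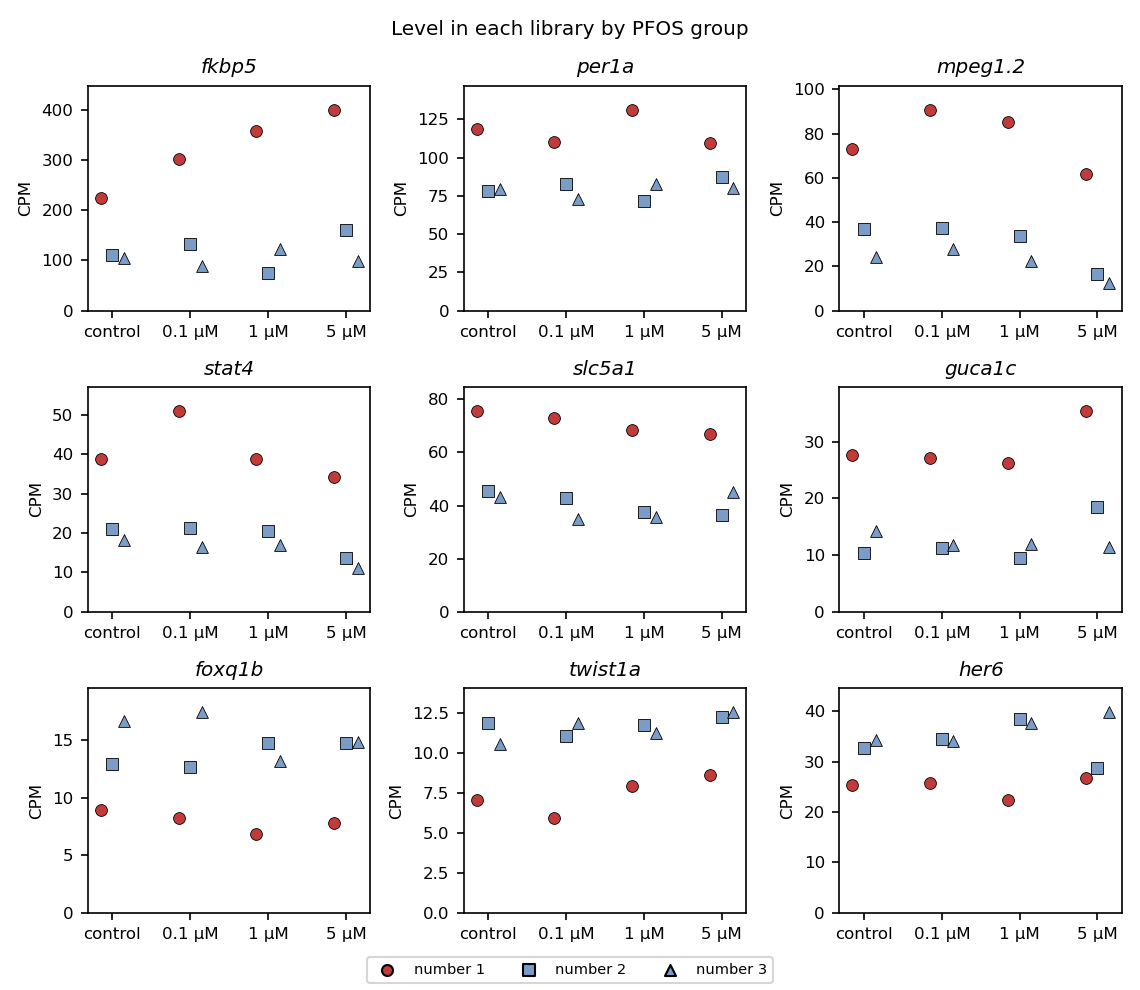
CPM of 9 genes (vertical, from 0) in each library of the 4 PFOS groups (horizontal), with red circles for libraries numbered 1 and blue squares and triangles for those numbered 2 and 3. In the first 6 panels each red circle lies above every blue symbol, and in the last 3 (foxq1b, twist1a, her6) below every one.

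Of 39 leukocyte genes tested, 8 were higher and none was lower (20.5% called, 3.34% over all genes), with a median log2 difference of 0.27. The macrophage pore-forming protein gene mpeg1.2 was at 72.9, 90.7, 85.1 and 61.5 CPM in the libraries numbered 1 and between 12.3 and 37.3 CPM (median 25.9) in the others. The lowest library numbered 1, at 5 µM, stood well above the highest other library, and the log2 difference was 1.6 ± 0.15 (SE, adjusted p = 5.85e-05). The granulin gene grn2 was at 16.3, 17.4, 12 and 11 CPM against 2.82 to 5.16 CPM (median 4.46), a log2 difference of 1.74 ± 0.14 (SE, adjusted p = 2.21e-05). The lysosomal protease gene ctss2.2 and the leukocyte actin-bundling gene lcp1 were higher by 0.97 ± 0.12 and 0.58 ± 0.08. The remaining called members were spi1a, the transcription factor gene of the myeloid lineage, cd74a, coro1a and mpx, the myeloperoxidase gene of neutrophils. The summed level of the whole list was 2326 to 2634 CPM in the libraries numbered 1 and 1138 to 2787 CPM in the others, so the sums overlapped.

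Of 47 inflammatory and immediate early genes tested, 11 were higher and none was lower (23.4% called, 3.34% over all genes). The list's median log2 difference was 0.23. The immune-induced gene irg1l, known from infected zebrafish epidermis, was at 156, 242, 212 and 134 CPM against 13.3 to 117 CPM (median 39.2), a log2 difference of 1.83 ± 0.38 (SE, adjusted p = 0.0164). Outside that list, 3 further immune genes were among the largest differences. The inducible nitric oxide synthase gene nos2a was at 7.68, 14.0, 13.2 and 4.59 CPM against 0.462 to 6.46 CPM (median 1.04). Its 5 µM library numbered 1 lay below the highest libraries numbered 2, so the classes overlapped, and the log2 difference was 2.02 ± 0.46 (SE, adjusted p = 0.0276). The nos2a call was lost in 9 of 25 alternatives. The chemokine gene ccl20b was at 3.16, 2.48, 3.24 and 2.15 CPM against 0.154 to 1.54 CPM (median 0.849), with no overlap and a log2 difference of 1.92 ± 0.30 (SE, adjusted p = 0.00315). The lipoxygenase gene alox5b.1, of a family that makes leukotrienes, was higher by 2.84 ± 0.46 at low counts. Among the immediate early genes of the list, nr4a3, fosl2 and fosaa were higher by 0.78 ± 0.10, 0.61 ± 0.08 and 1.11 ± 0.19, and the chemokine gene ccl25b by 0.46 ± 0.09. Of 27 interferon and antiviral genes, mxa and stat1b were higher, by 1.94 ± 0.46 and 1.28 ± 0.31, and none was lower. The share called was 7.41%, beside 3.34% of all genes. The call of mxa was lost in 12 of 23 alternatives and that of stat1b in 9 of 24.

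Genes of antigen presentation differed in both directions. Of 24 tested, 4 were higher and 3 were lower (29.2% called, 3.34% over all genes), with a median log2 difference of 0.16. The class I gene mhc1zba was higher by 0.58 ± 0.07 (SE, adjusted p = 0.000939). The immunoproteasome genes psmb8a and psmb10 were higher, psmb8a at 0.979, 0.893, 0.882 and 0.815 CPM against 0.134 to 0.426 CPM (median 0.317). Counts of psmb8a were low, at most 18 in a library numbered 1 and 6 in the others. The psmb8a call was lost in 6 of 24 alternatives. The class I gene mhc1uba was at 0 CPM in 3 of the 4 libraries numbered 1 and at 0.149 CPM in the first 0.1 µM library. It was at 1.23 to 3.02 CPM in 7 of the others and at 0 CPM in the third 1 µM library (adjusted p = 0.0101), so the third 1 µM library stood with the libraries numbered 1. The class I genes mhc1lja and mhc1lfa were lower by 1.42 ± 0.32 and 1.47 ± 0.37 on the log2 scale. The mhc1lja call was lost in 10 of 24 alternatives. In the deposited table, mhc1uba lies at chr19:7072854-7101100 and psmb8a next to it at chr19:7105838-7144548, in a build not given in the sources used here. Class I genes of zebrafish vary between haplotypes, and the part that haplotype or the assignment of reads plays in these counts was not tested. Of 45 proteasome genes, 2 passed, a share of 4.44% near the 3.34% of all genes. They were psme1 and psme2, subunits of the interferon-inducible activator cap, higher by 0.58 ± 0.09 and 0.91 ± 0.12.

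Of 43 intestinal genes tested, 9 were higher and 1 was lower (23.3% called, 3.34% over all genes). The list's median of 0.03 lay close to that of all genes. The glucose transporter gene slc5a1 was at 75.6, 73.1, 68.4 and 67.1 CPM in the libraries numbered 1 and at 35 to 45.6 CPM (median 40.2) in the others, a log2 difference of 0.83 ± 0.07 (SE, adjusted p = 3.98e-05). The levels of slc5a1 within each class spread little, and the classes lay far apart. The amino acid transporter gene slc6a19a.1 was higher by 0.63 ± 0.08 and the mucin gene muc13b by 0.36 ± 0.06. The intestinal transcription factor gene cdx1b was the 1 member that was lower, by 0.43 ± 0.10 on the log2 scale.

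Of 30 exocrine pancreas genes tested, 4 were higher and none was lower (13.3% called, 3.34% over all genes). The list's median of 0.57 was the largest among the lists with at least 20 members tested. Without the 5 µM group that median was 0.34, the lowest among the alternatives. The carboxypeptidase gene cpa1 was at 62.9, 44.6, 56.3 and 74.4 CPM against 12.8 to 36.6 CPM (median 31.4), a log2 difference of 1.00 ± 0.20 (SE, adjusted p = 0.0154). The elastase gene cela1.3 was higher by 1.33 ± 0.28 and the phospholipase gene pla2g1b by 0.71 ± 0.18, a call that pla2g1b lost in 15 of 25 alternatives. The third 5 µM library was low in this list, with cpa1 at 12.8 CPM and cela1.3 at 1.61 CPM. Without that library 13 of the 30 genes were higher, and without both it and the third 1 µM library 17 were.

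Of 82 keratin and epidermal genes tested, 9 were higher and 2 were lower (13.4% called, 3.34% over all genes), with a median of 0.01. Of the 9 higher, 4 are known from mucous cells: muc5.2, muc5.1, agr2 and agr1, whose products are mucins and the enzymes that fold them. The mucin gene muc5.2 was at 31.1, 37.3, 27 and 29.7 CPM against 6.99 to 20.8 CPM (median 15.4), a log2 difference of 1.11 ± 0.19 (SE, adjusted p = 0.00513). The claudin gene cldna and the keratin gene krt17 were higher by 0.91 ± 0.12 and 0.56 ± 0.09, and the keratin gene krt1-19d was lower by 0.42 ± 0.07. Without the third 5 µM library 8 genes of the list were higher and 7 lower.

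**Figure D4:**
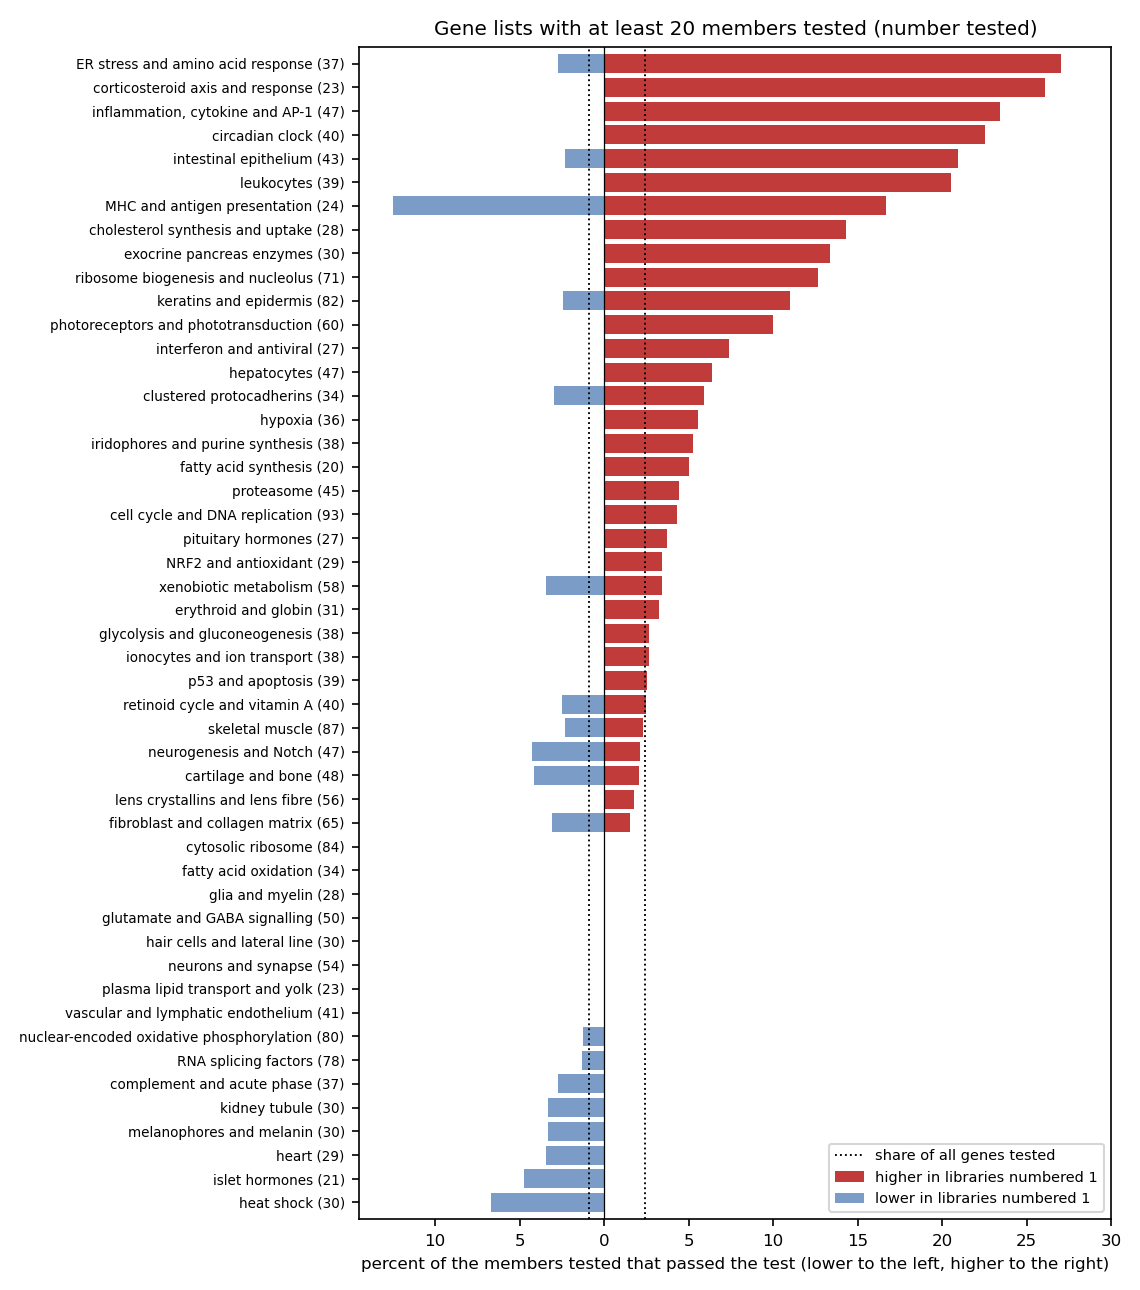
Percent of the tested members of each gene list with at least 20 members tested (vertical, number tested in parentheses) that were higher (red, to the right) or lower (blue, to the left) in the libraries numbered 1; dotted lines mark the same percents of all genes tested, 2.44% and 0.909%. The longest red bars belong to the endoplasmic reticulum, corticosteroid, inflammation, clock, intestine and leukocyte lists, and 8 of the lists drawn have no bar.

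Of 37 genes in a list of endoplasmic reticulum stress and amino acid response, 10 were higher and 1 was lower. The list had 29.7% called, beside 3.34% of all genes, and a median log2 difference of 0.20. The chaperone gene hsp90b1 was at 203, 217, 196 and 202 CPM in the libraries numbered 1 and at 123 to 178 CPM (median 145) in the others, a log2 difference of 0.49 ± 0.08 (SE, adjusted p = 0.00565). The disulfide isomerase genes pdia3, pdia6 and pdia4 and the co-chaperone gene dnajc3b were also higher, with pdia3 higher by 0.39 ± 0.06 (SE, adjusted p = 0.00362). The 1 member that was lower was ddit3, which encodes the stress-induced factor CHOP, by 0.24 ± 0.06 on the log2 scale. Of 30 genes tested in a heat shock list, none was higher and 2 were lower, with a median of 0.05. The share called was 6.67%, beside 3.34% of all genes. The inducible chaperone gene hsp70l was lower by 0.58 ± 0.12. The gene serpinh1b, of a collagen chaperone of the endoplasmic reticulum, was lower by 0.58 ± 0.10.

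Of 71 genes of ribosome biogenesis, 9 were higher and none was lower (12.7% called, 3.34% over all genes), with a median of 0.20. Among the 9, noc3l, npm1a, ncl and fbl, all nucleolar, were higher by 0.42 ± 0.08, 0.46 ± 0.09, 0.30 ± 0.06 and 0.35 ± 0.07. The count of genes higher was 0 without the 0.1 µM group and 1 without the 1 µM group. The median stayed between 0.17 and 0.24 in all alternatives tried. Of 93 cell cycle genes, 4 were higher and none was lower, a share of 4.3% beside 3.34% of all genes. Of 28 cholesterol synthesis and uptake genes, 4 were higher and none was lower (14.3% called, 3.34% over all genes), with a median of 0.29. Among them, the lipoprotein receptor genes ldlrb and ldlra were higher by 0.55 ± 0.09 and 0.34 ± 0.07, and the synthesis gene sqlea by 0.86 ± 0.19.

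Among photoreceptor genes, measured here in whole-body RNA, 6 genes of phototransduction were higher while the median of their list was not. Of 60 photoreceptor genes tested, these 6 were higher and none was lower, a share of 10% beside 3.34% of all genes. The list's median was -0.09, and only 16 of the 60 had a log2 difference above 0. The guanylate cyclase activator gene guca1c was at 27.6, 27, 26.2 and 35.4 CPM in the libraries numbered 1 and at 9.52 to 18.5 CPM (median 11.6) in the others, a log2 difference of 1.23 ± 0.11 (SE, adjusted p = 5.85e-05). Its relative guca1d was higher by 1.36 ± 0.19, and the cone arrestin genes arr3a and arr3b by 0.47 ± 0.08 and 0.57 ± 0.09. The green cone opsin gene opn1mw2 and the cone phosphodiesterase subunit gene pde6ha completed the 6, at 0.78 ± 0.14 and 0.47 ± 0.09. As background, the arrestins and the cyclase activators act in the recovery of the light response, and arr3a, arr3b, opn1mw2 and pde6ha are known from cones.

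The genes that were lower in the libraries numbered 1 were fewer and included several transcription factor genes. The forkhead genes foxq1b and foxq1a were at 8.96, 8.23, 6.84 and 7.78 CPM and at 8.96, 8.58, 7.87 and 9.78 CPM in the libraries numbered 1. In the 8 others they were between 12.7 and 17.5 CPM (median 14.8) and between 12 and 16.8 CPM (median 15.5). Neither gene overlapped between the classes, and the log2 differences were -0.89 ± 0.11 and -0.77 ± 0.11 (SE, adjusted p = 0.000709 and 0.00141). These paralogs lie on different chromosomes, 20 and 2. The mesenchymal transcription factor gene twist1a was at 7.08, 5.95, 7.94 and 8.67 CPM against 10.6 to 12.6 CPM (median 11.8), with a log2 difference of -0.67 ± 0.09 (SE, adjusted p = 0.00161). Every twist1a value of the libraries numbered 1 lay under all others. The retinol esterification gene lrata, which stores vitamin A, was at 2.86, 3.22, 3.16 and 4.22 CPM against 5.68 to 9.68 CPM (median 7.05), a log2 difference of -1.14 ± 0.16 (SE, adjusted p = 0.00166). The clustered protocadherin gene pcdh2ab9, a neuronal adhesion gene, was lower by 0.83 ± 0.11, with classes that overlapped. Of 34 clustered protocadherin genes tested, it was the 1 that was lower, while pcdh1gc6 and pcdh1g30 were higher, each by 0.45 ± 0.09. The share called in that list was 8.82%, beside 3.34% of all genes, and its median was -0.03. The fatty acid binding protein gene fabp11b was lower by 1.57 ± 0.24.

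Of 47 genes of neurogenesis and Notch signalling, 2 were lower and 1 was higher, with a median of -0.13. The share called was 6.38%, beside 3.34% of all genes. The genes her6 and her9, which hold progenitors back from differentiation, were lower by 0.48 ± 0.09 and 0.47 ± 0.10. The proneural gene ascl1b was higher by 0.71 ± 0.16, a call lost in 10 of 24 alternatives. The her6 level was 25.3, 25.8, 22.4 and 26.7 CPM in the libraries numbered 1 and 28.8 to 39.8 CPM (median 34.3) in the others, without overlap (adjusted p = 0.0100). Among skeletal muscle genes, 2 of 87 were lower and 2 were higher, a share of 4.6% near the 3.34% of all genes. The lower ones were actin genes: acta1a was lower by 0.48 ± 0.10 and actc1a by 1.79 ± 0.37, with actc1a at 7.23, 11.4, 4.26 and 25.6 CPM against 22 to 68.7 CPM (median 37.4). The first 5 µM library was at the same 25.6 CPM of actc1a as the second 5 µM library. Of 48 cartilage and bone genes, hapln1a and sox9a were lower, by 0.27 ± 0.06 and 0.37 ± 0.08, calls lost in 9 and 11 of 25 alternatives. The osteoclast gene acp5a was higher by 0.94 ± 0.24, a call lost in 18 of 24 alternatives. The share called in that list was 6.25%, beside 3.34% of all genes.

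The list counts moved with the total. Without the 0.1 µM group, 2 genes of the corticosteroid list were higher, 2 of the inflammation list, 2 of the endoplasmic reticulum list, 3 of the intestinal list, 4 of the leukocyte list and 6 of the clock list, with none lower in these. Without the third 5 µM library, the counts higher were 8, 12, 9, 11, 8 and 9 in the same order.

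Several gene lists of tissues central to the study's subject held no gene past the threshold. None of 54 neuron and synapse genes, 50 genes of glutamate and GABA signalling, 28 glia and myelin genes or 30 hair cell genes was called by edgeR, and their medians lay between -0.04 and -0.02. The same held for 41 endothelial genes, 34 genes of fatty acid oxidation, 23 of plasma lipid transport and yolk, 84 cytosolic ribosomal protein genes and 13 genes of the mitochondrial genome. Whether these shares of 0 differ from the 3.34% of all genes was not tested.

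The libraries numbered 2 and 3 also differed among themselves. Over the 12 libraries, 364 genes (1.69%) differed between numbers 1 and 2, 758 (3.52%) between numbers 1 and 3, and 7 (0.0325%) between numbers 2 and 3. Of the 721 genes, 271 passed against number 2 alone and number 3 alone, and all 721 had the same sign in both comparisons. These comparisons share the libraries numbered 1, and the 721 genes were called against numbers 2 and 3 together. Neither count is therefore independent of the call. The 7 genes were higher in the libraries numbered 2, and include irg1l, nos2a, elf3 and 3 uncharacterized neighbours of irg1l on chromosome 14.

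Within numbers 2 and 3, the 5 µM libraries went against their numbers. On the second component, which held 15.7% of the variance, the libraries numbered 2 of the control, 0.1 and 1 µM groups and the third 5 µM library had positive scores, while the libraries numbered 3 of those groups and the second 5 µM library had negative ones. The deviations of the libraries numbered 2 correlated between 0.262 and 0.384 among the control, 0.1 and 1 µM groups, and between -0.144 and -0.0601 with the second 5 µM library. Those of libraries numbered 3 correlated between 0.192 and 0.451 among these groups, and between -0.0108 and 0.0714 with the third 5 µM library. Pairs of 1 library numbered 2 and 1 numbered 3 that included a 5 µM library correlated between 0.119 and 0.315.

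With the 5 µM group left out, a comparison added after the data were seen, 364 genes (1.70%) differed between numbers 2 and 3 over 9 libraries, 225 higher and 139 lower in number 2. In the same 9 libraries, 1197 genes (5.59%) differed between numbers 1 and 2 and 1002 (4.68%) between numbers 1 and 3. By these counts, numbers 2 and 3 differed from each other in fewer genes than either differed from number 1. The libraries numbered 1 showed no such exception at 5 µM: each correlated between 0.304 and 0.394 with the first 5 µM library.

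**Figure D5:**
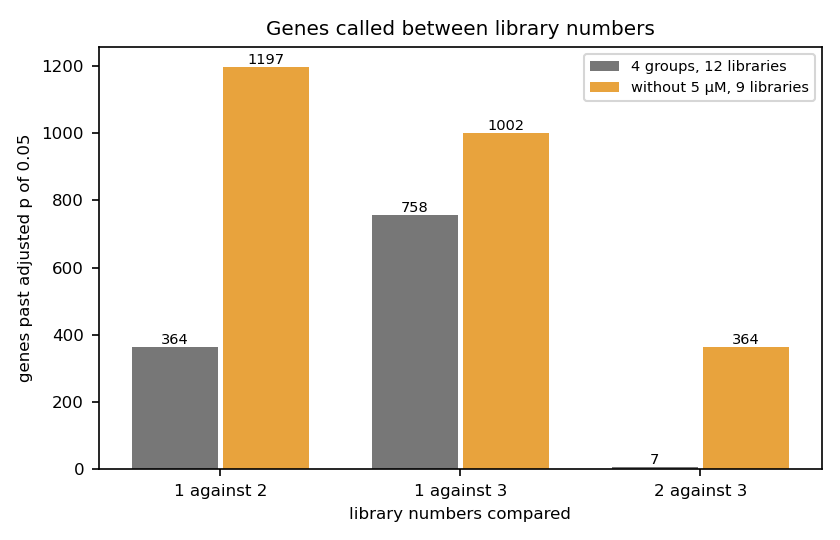
Genes past an adjusted p of 0.05 (vertical) in the comparisons of library numbers 1 with 2, 1 with 3 and 2 with 3 (horizontal), over all 12 libraries (grey) and over the 9 libraries without the 5 µM group (orange). The comparison of 2 with 3 went from 7 genes to 364 when the 5 µM group was left out.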

How the data were processed

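RNA of whole AB zebrafish larvae was isolated with RNAzol and the libraries measured with a KAPA quantification kit, per the labels' protocols. The gene table holds, per the file headers, estimated counts per gene, which the authors rounded to whole numbers, and RPKM values that the authors scaled to gene length and library total. The aligner, the counter, the strand setting, the annotation and the build were not given in the sources used here, so reads of overlapping, antisense or near-identical genes cannot be told apart. The counts served all tests, and RPKM served only to recover gene lengths. Columns left unused numbered 18 in the table of genes and 45 in that of transcripts, among them the 3 count columns of the 10 µM group. Library totals ranged from 12203158 to 19978125, and precision is limited by 4 libraries against 8.

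Of 32520 genes, 5635 had no count in the 12 libraries and 21560 passed edgeR's filterByExpr. Counts were normalized by TMM and fitted with edgeR 4.0.16 (R 4.3.3) by quasi-likelihood with dose group and number class as terms, and p-values were adjusted over all genes tested by Benjamini-Hochberg, with a threshold of 0.05. The SE of a log2 difference is its size over the root of its F statistic. The fit put the variation between libraries at 11.4%. CPM uses TMM-scaled library sizes, and log2 CPM a prior count of 2. Number as 3 levels gave the comparisons of 1, 2 and 3, and an added product term the interaction. The fit was tested on simulated data.

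Lists (57, with 2319 of 2510 symbols found in the table) and the comparison itself were chosen with earlier results of these data known. Genes were named by a rule: the 12 largest differences in each direction with at least 1 CPM and the library numbered 1 beyond both others in every group, the 5 smallest p-values in each direction, and up to 4 called members of each list. The first 2 parts pass over clone-based symbols, which 148 of the genes higher and 48 of those lower carry. Other called list members, the genes of the comparison of 2 with 3, cyp2k18 and znf1038 were named after their values were seen. Some genes that the rule names are not reported here. Alternatives were another normalization, filters, DESeq2 1.42.0, number as a replicate block, no dose block, a minimum fold of 1.5, a length trend and the omission of each library and each dose group. No 2 libraries of a group agreed within counting noise.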

Additional observations from a re-analysis of the deposited data

Results flagged for a closer look

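A sample far from the rest of its class was sought among the 4 libraries numbered 1 and among the 8 others by Dixon's test, which flags about 1 in 20 groups by chance. It was run on 266 groups and marked 15. Among the 8 others, the third 5 µM library accounted for 4 of the 15: it was highest in the score on the first component at 34.4, against 13.4 in the next library, and in slc6a19a.1 at 70.17 CPM, and lowest in cpa1 at 12.8 CPM and in mhc1lja at 0.538 CPM. The third 1 µM library was highest in SLC16A6 at 1.48 CPM, and the third 0.1 µM library in pcdh1gc6 at 21.4 CPM.

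Among the libraries numbered 1, the 0.1 µM library was the deepest, at 19978125 reads. It was also highest in sult5a1 at 28.5 CPM, cd74a at 4.81 CPM, mucms1 at 1.98 CPM and mhc1uba at 0.149 CPM, the last against 0 CPM in the other 3. The 5 µM library numbered 1 was highest in guca1c at 35.4 CPM and in rbp4l, a retinol-binding protein gene, at 274 CPM, lowest in mxa at 0.222 CPM, and lowest in the slope of expression on log2 gene length at -0.0690. With a length trend removed from every library, 755 genes were called.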

How the results depend on the processing

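The number of genes that differed between the libraries numbered 1 and the others was 739 with DESeq2's size factors, 873 without a filter, 606 under a stricter filter, 806 in DESeq2 and 755 with the length trend removed. With number as 3 levels (replicate block) it was 864, of which 711 were among the 721. A required fold of 1.5 left 63 genes (57 higher, 6 lower), by its construction. Without the dose block 332 were lower. Leaving out a dose group gave 417 without the control (63 lower), 200 without 0.1 µM (169 higher, 31 lower) and 343 without 1 µM (276 higher, 67 lower). Leaving out 1 library gave 224 to 888 genes, 183 to 637 of them higher and 41 to 260 lower, and without the 5 µM and 1 µM libraries numbered 3 together 295 were lower. The cause of these changes was not tested. The count fell with some libraries left out and rose with others, to 888 without the second 5 µM library. The comparison of numbers 2 and 3 gave 12 genes without a filter, 3 under the stricter filter, 0 to 70 without 1 library, and 364 with the control, 0.1 and 1 µM groups alone, where numbers 1 and 2 gave 1197 and numbers 1 and 3 gave 1002. Of 124 genes named, 15 passed in every alternative, 26 others were lost only under the required fold, and none turned its direction. The calls of 19 were lost in more than 10 alternatives. The correlation of same-numbered libraries exceeded 0.1 in all pairs of number 1. For numbers 2 and 3 it did so only in pairs without a 5 µM library, so the numbers do not pair the samples throughout. With number as a replicate block, the dose comparisons went from 0 genes to 1 (cyp2k18, a cytochrome P450 gene) in the F test over doses and in 5 µM against control, and stayed at 0 for 0.1 and 1 µM, while the variation between libraries went from 13.9% to 11%. Genes at 5 µM with an unadjusted p below 0.05 went from 723 to 1111. Depth limits genes near 0 CPM, such as mhc1uba, scg5 and SLC16A6.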

Other observations

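The genes that differed were spread over all 25 chromosomes, with the share called between 1.74% on chromosome 13 and 4.98% on chromosome 19. Some lay side by side. Of 1536 windows of 1 Mb that held a tested gene, 10 held at least 5 genes called and 1032 held none. On chromosome 12, 9 of 22 genes in chr12:46000001-47000000 were higher in the libraries numbered 1, among them trim16 and zgc:153932, a symbol that the table lists under more than 1 gene. On chromosome 20, adgrf6, adgrf7 and adgrf8, a tandem family of adhesion receptors, and pla2g7 were all higher. On chromosome 14, irg1l and 4 neighbours were higher. On chromosome 19, psmb8a, rfx5 and urgcp were higher and mhc1uba was lower, and on chromosome 25, mhc1lja and mhc1lfa were both lower. Near-identical copies within such families can exchange reads, and the part this plays was not tested.

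Some genes were close to absent in one class. The zinc finger gene znf1038 on chromosome 4 had 0 counts in all 4 libraries numbered 1 and 0.0710 to 1.46 CPM in the others, at least 18.8-fold lower when 3 counts over the 4 libraries are taken as the floor (adjusted p = 0.00929). SLC16A6, of a monocarboxylate transporter family, is annotated as a polymorphic pseudogene. It was at 1.05, 2.93, 5.22 and 3.04 CPM in the libraries numbered 1. In 6 of the 8 others it was listed at 0, with 0.616 CPM in the second 5 µM library and 1.48 CPM in the third 1 µM library. The call of SLC16A6 was lost in 3 of 24 alternatives, DESeq2 among them. The neighbouring genes scg5, at chr19:47523730-47527192, and actc1a, at chr19:47549568-47555956, were both lower, and scg5 was at 0, 0.496, 0.147 and 0 CPM against 0.328 to 4.83 CPM (median 1.5). The classes of scg5 overlapped. Its call was lost in 9 of 24 alternatives and that of actc1a in 7 of 25.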
